A study of Mus musculus with 4 samples.

Results

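The Gimap genes (GTPases of the immunity-associated protein family) are 8 neighbouring genes of the mouse, Gimap1, Gimap3, Gimap4, Gimap5, Gimap6, Gimap7, Gimap8 and Gimap9. They were taken by symbol from a count table of 24391 genes, and all 8 had a row. The family was chosen by the fall of Gimap8 upon washout of a γ-secretase inhibitor (GSI), in the same libraries that are described here. The levels and differences of the members are therefore given as a description. The members were fitted along with all other genes, but no p-value is given for them, and counts of members past a threshold describe the values and are not evidence of a fall. Whether washout or GSI was higher was set by that choice for Gimap8, and the other 7 genes came with it as its family.

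GIMAP proteins share a GTP-binding domain of the AIG1 type, which is related in fold to that of the septins. Most members sit on intracellular membranes such as the endoplasmic reticulum, the Golgi, lysosomes or vesicles, and they are best known from lymphocytes, where they act in cell survival. In the thymus their levels change as T cells mature, and loss of Gimap5 leaves rodents with few peripheral T cells. The membrane protease γ-secretase, which DAPT blocks, releases the intracellular domain of Notch, and this domain joins RBPJ at its target genes. Washing the inhibitor out lets the cleavage resume.

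The counts come from RNA-Seq of 4 Beko libraries. Beko is a mouse progenitor T-cell leukemia line in which Notch signals constitutively. In 2 libraries (GSI), the cells had been kept in DAPT for 48 h, at a dose that the labels give as 10 mg/ml and the methods as the same figure in μg/ml. In the other 2 libraries (washout), the cells received the same treatment, were then washed, and grew for another 24 h without the inhibitor. All 4 libraries thus come from 1 line that had met the inhibitor, and no untreated library was analysed here. The removal of the inhibitor and the additional 24 h in culture cannot be told apart. The total counts were 29671401 and 13716199 in GSI replicates 1 and 2, and 36364200 and 14451995 in washout replicates 1 and 2. Levels in CPM are counts per 1000000 counts of the library, with the library total scaled by its TMM factor, and 3 counts correspond to 0.0937, 0.206, 0.0881 and 0.223 CPM in these libraries. The labels do not say whether replicates were separate cultures, so every p-value below measures only the spread between these libraries, which may be technical. The washout libraries carried higher levels of Notch targets. Of 9 listed target genes tested, 7 rose past both thresholds (edgeR adjusted p under 0.05 and a log2 fold change beyond 1 or -1) and 0 fell. Over all genes tested, 7.74% rose and 11.7% fell past both. Hey1 showed the largest rise of the listed targets, 3.47 on the log2 scale (SE 0.117, edgeR adjusted p = 0.000281).

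In the mm9 genome the family lies on chromosome 6 between 48597233 and 48716518, a span of 119.3 kb in which 0 other rows of the table fall. Gimap8 opens the cluster at 48597233 to 48610874. It is followed on the same strand by Gimap9 at 48626128 to 48629113 and Gimap4 at 48634548 to 48642061. Gimap6, at 48651581 to 48658224, runs the other way. Gimap7 at 48668620 to 48674635, Gimap1 at 48689053 to 48693789 and Gimap5 at 48696196 to 48704209 return to the first strand, and Gimap3, at 48715088 to 48716518, closes the cluster on the opposite one. Gimap8 has the longest coding sequence, 2067 nucleotides against 876 to 987 in the other 7. Gimap5 and Gimap3 are near copies, with 90.3% identical coding bases, whereas the other 27 pairs share 55.9% to 66.7%. Of the 50-base words in the exons, 22.9% of those of Gimap3 and 8.81% of those of Gimap5 occur in both genes, so reads could be split between them and their values are uncertain to that extent. Gimap1 overlaps an exon of Gm3345 on the other strand, and the strand setting of the counting is not given in the sources used here. Of the 50-base words of Gimap1, 1.1% also occur in other genes (1700047G07Rik and Hhat). The other 5 members share no 50-base word with another gene.

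To show what lies at the start of the genes, the 250 bases before each start were taken from RefSeq on GRCm38.p6, a later build than the mm9 of the counts. All 8 members matched, with 9 windows, since Gimap8 has 2 starts. Of these, 4 are printed: Gimap8, which carried the largest difference upon washout, Gimap7, whose relative difference came next, Gimap9, whose difference was the smallest, and Gimap6, in whose window no searched motif was found. Of the 2 Gimap8 windows, the printed one is that with a match. The other, at chr6:48646984-48647233, held no searched motif either. Capitals mark a match to a searched motif on either strand. They lie at chr6:48647111-48647360 (plus strand), chr6:48718371-48718620 (plus strand), chr6:48675885-48676134 (plus strand) and chr6:48708245-48708494 (minus strand), in that order, and each is written in the direction of its gene.
Gimap8: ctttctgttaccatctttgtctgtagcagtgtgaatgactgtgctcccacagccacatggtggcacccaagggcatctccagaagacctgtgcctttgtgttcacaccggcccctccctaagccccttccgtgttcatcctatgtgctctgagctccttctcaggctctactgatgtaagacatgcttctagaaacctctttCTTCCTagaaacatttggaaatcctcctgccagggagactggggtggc
Gimap7: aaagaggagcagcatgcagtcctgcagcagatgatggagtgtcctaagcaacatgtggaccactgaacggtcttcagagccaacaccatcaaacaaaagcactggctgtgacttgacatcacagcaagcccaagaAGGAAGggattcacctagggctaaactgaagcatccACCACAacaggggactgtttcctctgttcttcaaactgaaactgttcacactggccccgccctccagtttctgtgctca
Gimap9: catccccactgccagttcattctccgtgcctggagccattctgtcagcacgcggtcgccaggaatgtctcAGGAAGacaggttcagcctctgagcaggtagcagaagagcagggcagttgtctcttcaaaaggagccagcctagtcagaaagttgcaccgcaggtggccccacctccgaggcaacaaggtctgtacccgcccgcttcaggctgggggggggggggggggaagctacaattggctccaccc
Gimap6: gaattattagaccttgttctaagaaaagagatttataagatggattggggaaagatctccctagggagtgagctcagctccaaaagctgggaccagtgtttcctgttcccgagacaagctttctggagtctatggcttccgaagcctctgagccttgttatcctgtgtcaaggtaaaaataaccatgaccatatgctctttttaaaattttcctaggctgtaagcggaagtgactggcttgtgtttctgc

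In these windows, extended by 50 bases past the start, 6 motifs were searched on both strands. For ETS factors the string AGGAAG was searched, which was in 7 of 9 windows and in 7 genes, all but Gimap6. Of the 32851 promoter windows in the RefSeq table, 35.4% held it. The search did not cover GGAAG after another base, which the printed Gimap6 window holds as cggaag. In Gimap8, AGGAAG stands on the reverse strand 48 bases before the start, as CTTCCT in the printed sequence. The RUNX core TGTGGT was in 3 windows (Gimap4, Gimap7 and Gimap1) against 16.8% of all windows. It appears in Gimap7 as ACCACA, and the preceding AGGAAG of the same window is an ETS match. The RBPJ core TGGGAA, whose letters are also those of the Ikaros core, was in 1 window, that of Gimap3 past its start, against 25.6% of all windows. The forkhead motif GTAAACA was in 1, again Gimap3, against 3.6%. The E-box CACGTG was in 0 windows of the family and in 7.2% of all windows. The motif of GATA factors was searched as AGATAA, and 0 of the family's windows held it, against 11.2% of all. A match is a stretch of letters and not a measured binding site.

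The family was expressed in GSI and at lower levels upon washout. Summed over the 8 genes, it had 299.7 and 273 CPM in GSI replicates 1 and 2, and 83.2 and 112.8 CPM in washout replicates 1 and 2. The mean log2 of this sum differed by -1.56 (washout minus GSI), a 2.95-fold lower level upon washout, and the groups do not overlap (lowest GSI library 2.42-fold above the highest washout library). Between replicates, the log2 of the summed level had an SD of 0.0951 in GSI and 0.310 in washout. These values are a description, since the family was chosen on this contrast. In bulk RNA, fewer cells that express a gene and less RNA per cell cannot be told apart. All 8 members passed the filter on low counts and had a log2 fold change below 0, with a median of -1.90, beside -0.01 over all 12266 genes tested. In all 8, both washout libraries lay below both GSI libraries, as they did in 39.1% of all genes tested. Past both thresholds, 7 of the 8 (all but Gimap9) were lower, beside 11.7% of all genes, and 0 were higher, beside 7.74% of all genes. These shares are printed as a background only, because the family was selected on this contrast.

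**Figure D1:**
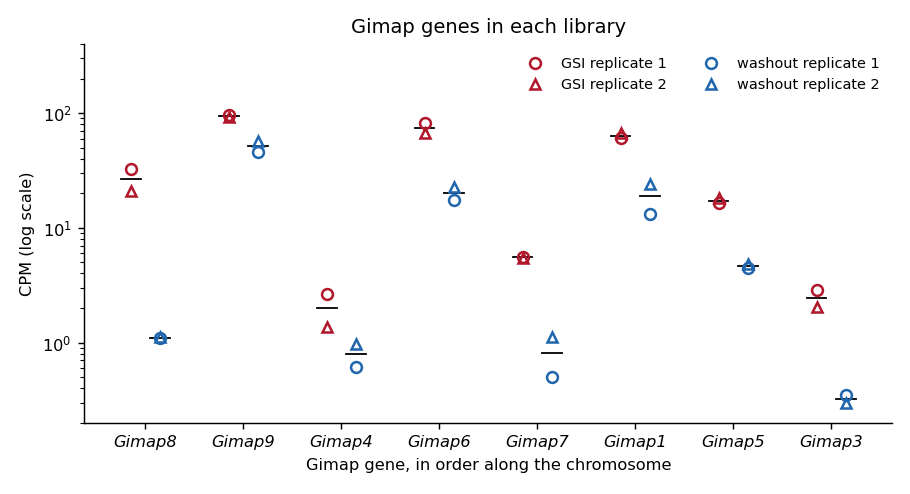
Level of each Gimap gene in CPM (vertical axis, logarithmic) in each of the 4 libraries, GSI and washout (circles are replicate 1, triangles replicate 2, and short lines the mean of both). Both washout libraries lie below both GSI libraries in all 8 genes, with the widest gap in Gimap8 and narrow ones in Gimap9 and Gimap4.

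Gimap8, whose protein carries several GTPase domains, had 1036 and 303 counts in GSI and 37 and 15 counts upon washout, which is 32.4 and 20.8 CPM against 1.09 and 1.12 CPM. Upon washout it was 24.3-fold lower (log2 fold change -4.60, SE 0.297), a value that ranked 15 among the falls of all 12266 genes. The groups are far apart, with the lowest GSI library standing 4.22 above the highest washout library on the log2 scale. The GSI libraries differed from each other by 0.64 on that scale, and the washout libraries by 0.04 in size. With only 37 and 15 counts upon washout, that small difference is no measure of the spread there.

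Gimap7, whose human counterpart stimulates GTP hydrolysis by GIMAP2, had 179 and 80 counts in GSI (5.59 and 5.48 CPM) and 17 and 15 counts upon washout (0.499 and 1.12 CPM). Its level was 7.57-fold lower (log2 fold change -2.92, SE 0.399). The GSI libraries were nearly equal, whereas the washout libraries lay apart by 1.16 in size on the log2 scale, and without washout replicate 1 the log2 fold change was -2.30. Gimap3, the near copy of Gimap5, was a low gene throughout, with 92 and 30 counts in GSI (2.87 and 2.06 CPM) and 12 and 4 counts upon washout (0.352 and 0.298 CPM). It was 7.40-fold lower (log2 fold change -2.89, SE 0.393), and the groups stood 2.54 apart on the log2 scale. With 4 counts in its lowest library, Gimap3 is close to the 3 counts taken as the floor.

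Gimap5, Gimap1 and Gimap6 had differences of about the same size. Gimap5, which keeps peripheral lymphocytes alive, had 522 and 264 counts in GSI (16.3 and 18.1 CPM) and 152 and 65 counts upon washout (4.46 and 4.84 CPM). It was 3.71-fold lower (log2 fold change -1.89, SE 0.170), and replicates differed by 0.15 in size or less on the log2 scale. Gimap1, needed for the survival of mature T and B cells, had 1947 and 970 counts in GSI (60.8 and 66.5 CPM) and 453 and 326 counts upon washout (13.3 and 24.3 CPM). Its log2 fold change was -1.80 (SE 0.264), 3.47-fold lower, with washout replicate 2 the higher of its pair by 0.87 on the log2 scale. Gimap6, a partner of the autophagy protein Gabarapl2, had 2646 and 972 counts in GSI (82.7 and 66.6 CPM) and 595 and 306 counts upon washout (17.5 and 22.8 CPM). It was 3.76-fold lower (log2 fold change -1.91, SE 0.172). In all 3 genes the groups stood more than 1 apart on the log2 scale (1.75 in Gimap5, 1.33 in Gimap1 and 1.55 in Gimap6).

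Gimap4 and Gimap9 had the smallest differences, and their levels in GSI lie at opposite ends of the family. Gimap4, linked to the pace at which T cells complete apoptosis, had 85 and 20 counts in GSI (2.66 and 1.37 CPM) and 21 and 13 counts upon washout (0.617 and 0.967 CPM). Its log2 fold change was -1.47 (SE 0.459), and the groups stood 0.50 apart on the log2 scale, less than the 0.95 between the GSI libraries. Leaving out GSI replicate 1 took it to -0.86 and leaving out washout replicate 1 took it to -1.10, and in both cases it was no longer past the thresholds. Gimap9 had 3086 and 1346 counts in GSI (96.4 and 92.2 CPM) and 1547 and 773 counts upon washout (45.4 and 57.5 CPM). Its log2 fold change of -0.88 (SE 0.131, a 1.84-fold lower level) is short of the fold threshold, and the groups stood 0.68 apart, above the 0.34 by which the washout libraries differed. Without washout replicate 2, its log2 fold change was -1.04.

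**Figure D2:**
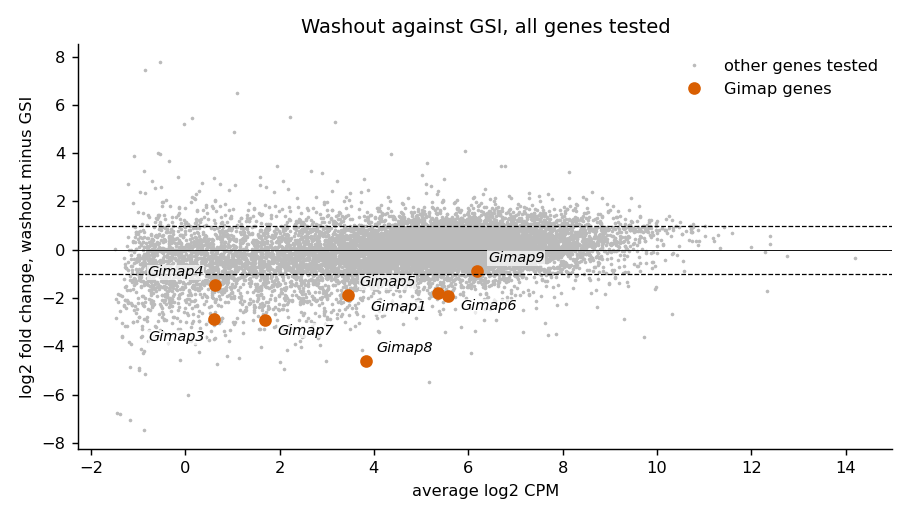
Log2 fold change (washout minus GSI, vertical axis) against average log2 CPM (horizontal axis) for all 12266 genes tested, with the Gimap genes as large orange points and dashed lines at 1 and -1. All 8 Gimap genes lie below 0, Gimap8 at -4.60 under nearly all genes of its level, and Gimap9 at -0.88 is the only member above the lower dashed line.

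Levels of different genes can be compared only per length, and for this the CPM was divided by the length of the merged exons in kb. Per kb, Gimap9 was the highest member in GSI, at 58.7 and 56.2, followed by Gimap1 at 32.5 and 35.5 and by Gimap6 at 23.7 and 19.1. Next came Gimap5 at 6.93 and 7.69 and Gimap8 at 8.75 and 5.61, whose libraries overlap, so that these neighbours do not differ beyond their spread. Gimap7 (4.41 and 4.32), Gimap3 (3.17 and 2.27) and Gimap4 (1.44 and 0.745) were the lowest. Upon washout the first 4 places were again held by Gimap9 (27.7 and 35.0), Gimap1 (7.11 and 12.95), Gimap6 (5.00 and 6.51) and Gimap5 (1.90 and 2.06). Gimap8 moved from among the middle members to the last place, at 0.294 and 0.302 CPM per kb. Above it came Gimap7 (0.393 and 0.879), Gimap4 (0.335 and 0.526) and Gimap3 (0.389 and 0.328). In this order, Gimap4 overlaps both of its neighbours and does not differ from either beyond their spread, whereas the libraries of Gimap7 lie just above those of Gimap3. The gene model of Gimap3 holds 906 nucleotides and no untranslated part, which makes its level per length uncertain. Upon washout this level also rests on only 12 and 4 counts. The order of Gimap3 and Gimap8 at the last places is therefore uncertain.

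**Figure D3:**
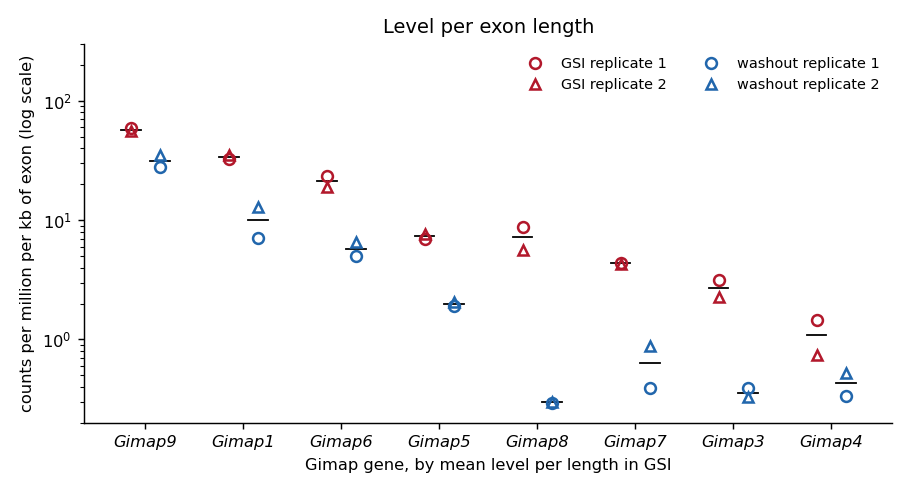
Level per exon length of each Gimap gene (CPM per kb, logarithmic axis) in the 4 libraries (circles replicate 1, triangles replicate 2, short lines their mean), with members ordered by their level in GSI. Gimap9 is the highest member in both conditions. Gimap8 goes from 8.75 and 5.61 in GSI to 0.294 and 0.302 upon washout. These are the lowest values drawn, close to those of Gimap3 (0.389 and 0.328), whose level per length is uncertain.

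Gimap8 contributed 10.8% (95% exact binomial interval 10.2 to 11.4) and 7.60% (6.80 to 8.47) of the family's counts in the GSI libraries, against 1.31% (0.921 to 1.80) and 0.989% (0.554 to 1.63) in the washout libraries. Gimap9 contributed 32.2% and 33.8% in GSI and 54.6% (52.7 to 56.4) and 51.0% (48.4 to 53.5) upon washout. For both genes the intervals of GSI and washout do not meet. Those of Gimap8 in the GSI libraries do not meet each other either, so counting error is not the only spread. Gimap8 was chosen by its fall, and the share of Gimap9 depends on the counts of the other members, so these shares are a description. Gimap1, at 20.3% and 24.3% in GSI and 16.0% and 21.5% upon washout, and Gimap4, at 0.886% and 0.502% against 0.741% and 0.857%, overlap between conditions. The intervals cover counting error only, and a share of counts reflects length as well as level.

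How many members lay past the thresholds was counted again under other settings, as a description of how far the values depend on them. It was 7 of 8 with the replicate number as a block, where 12.8% of all genes were lower, and 7 of 8 without GSI replicate 2 (10.2%). It was 6, without Gimap4, in DESeq2 (9.04% of all genes), with glmTreat against a log2 fold change of 1 (4.08%), with counts thinned to the smallest library (11.3%), without GSI replicate 1 (9.24%) and without washout replicate 1 (10.3%). A filter of at least 10 counts in every library dropped Gimap3 and left 6 of 7 (10.0%). It was 8, with Gimap9, with the total count alone (16.0%), with offsets for GC content and length (11.5%, or 12.4% with the block), without washout replicate 2 (10.6%) and with the adjusted p-value alone (25.4%). Gimap8, Gimap6, Gimap7, Gimap1 and Gimap5 were past the thresholds in 17 of 17 alternatives, Gimap3 in 16 of 16, Gimap4 in 12 and Gimap9 in 5. The log2 fold change of Gimap8 ran from -4.99 to -4.24 over these alternatives and that of Gimap9 from -1.24 to -0.71. The alternatives use the same libraries again, and Gimap8 was chosen by its fall. These ranges are therefore no test of a difference between the genes.

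**Figure D4:**
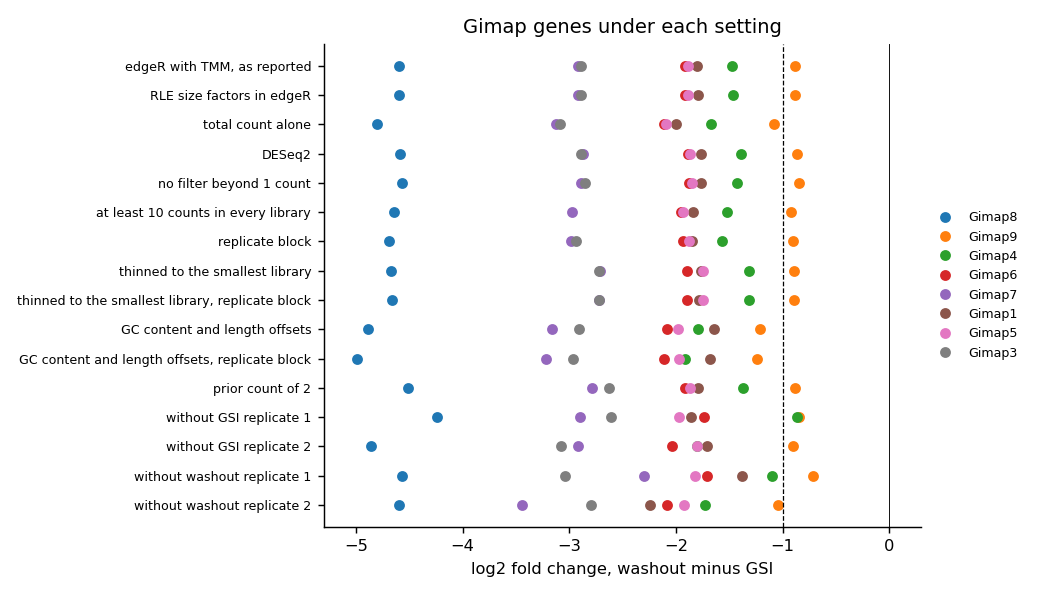
Log2 fold change (washout minus GSI, horizontal axis) of each Gimap gene (colours) as reported (edgeR with TMM) and under each alternative that can change it (rows), with a dashed line at -1. Gimap8 stays between -4.99 and -4.24, Gimap9 between -1.24 and -0.71, and every member drawn is below 0 in every row.

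The genes on both sides of the cluster were compared with it, taking 10 rows of the table per side. Upstream, 6 of 10, among them Repin1 and Rarres2, are listed at 0 in every library, and 1 could be tested. This was Zfp467, 201.4 kb before the cluster, with 149 and 79 counts before washout against 42 and 11 after it (log2 fold change -2.22, SE 0.310, edgeR adjusted p = 0.00194). Downstream, 5 of 10 could be tested, 2 fell and 0 rose past both thresholds, beside 11.7% and 7.74% of all genes. These are the neighbours Tmem176b and Tmem176a, which encode membrane proteins of antigen-presenting and lymphoid cells. Tmem176b, 67.3 kb after the cluster, had 58.6 and 45.3 CPM in the GSI libraries against 19.7 and 19.3 CPM after washout (log2 fold change -1.42, SE 0.150, edgeR adjusted p = 0.00079). Tmem176a, at 75.0 kb, had 33.6 and 24.1 CPM against 8.63 and 9.22 CPM (log2 fold change -1.70, SE 0.193, edgeR adjusted p = 0.000979). The RNA-binding genes Igf2bp3 and Tra2a, farther out, had log2 fold changes of 0.14 and 0.86. Ccdc126, at 552.8 kb the farthest flanking gene tested, had -0.60 (SE 0.198), short of the fold threshold. The flanking genes named here were picked after their values were seen, and whether position has a part in the members' values was not tested.

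**Figure D5:**
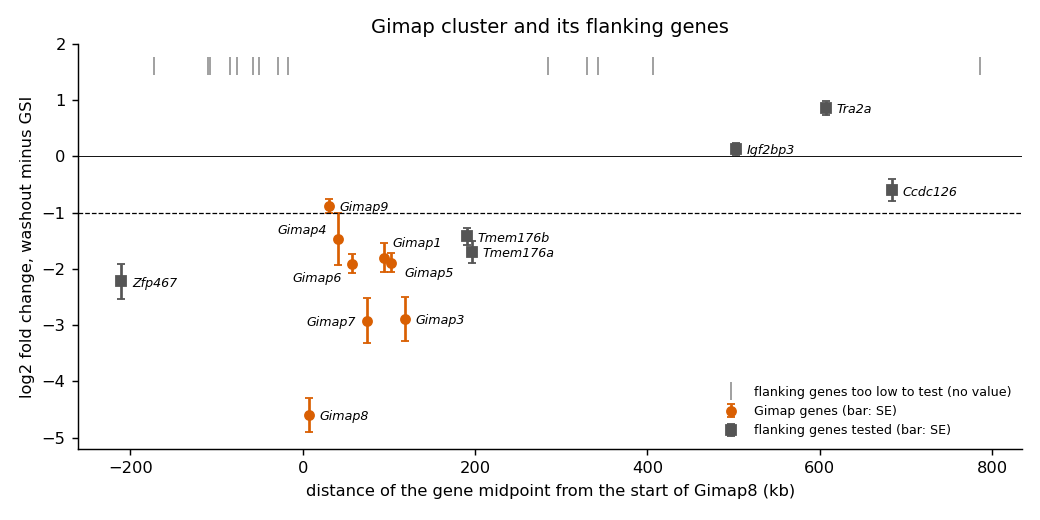
Log2 fold change (washout minus GSI, vertical axis) of the Gimap genes (circles) and of flanking genes (squares) against the distance of the gene's midpoint from the start of Gimap8 in kb, with bars of 1 SE, a dashed line at -1, and grey ticks for flanking genes too low to test. The 8 members lie between -4.60 and -0.88. Of the flanking genes, Zfp467 lies at -2.22, the Tmem176 pair at -1.42 and -1.70, Ccdc126 at -0.60, and Igf2bp3 and Tra2a above 0.

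Genes that act beside the family were given by 4 lists. Among the partners in survival and autophagy, 9 of 10 genes were tested, 1 fell and 0 rose, with a median log2 fold change of -0.40. Of all genes tested, 11.7% fell and 7.74% rose, so that 1 of 9 is near the background. The gene that fell is Map1lc3a, an LC3 protein of the autophagosome membrane, from 5.47 and 5.34 CPM to 1.26 and 1.12 CPM (log2 fold change -2.16, SE 0.262, edgeR adjusted p = 0.0012). Gabarapl2, the partner of Gimap6, had 17.1 and 15.3 CPM in the GSI libraries against 17.1 and 12.9 CPM after washout. The survival gene Bcl2 (-0.81) and its relative Bcl2l1 (-0.40) were short of the fold threshold, as was the death effector Bax (0.75), and Gabarapl1 is listed at 0 in every library. Among genes of quiescent T cells, 12 of 15 were tested, 4 fell and 0 rose (11.7% and 7.74% of all genes), with a median of -0.81. The largest fall was that of Klf2, a transcription factor of resting T cells, from 94 and 33 counts to 5 and 4 (log2 fold change -3.71, SE 0.458, edgeR adjusted p = 0.00127). The antiproliferative Btg2 (-2.37) and Tob1 (-1.43) and the forkhead factor Foxo3 (-1.21) were the other falls, whereas Il7r, the interleukin 7 receptor, had 0.15.

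Other GTPase families were counted in the same way. Of the interferon-inducible GTPases, which guard against intracellular pathogens, 9 of 17 were tested, 6 fell and 0 rose (11.7% and 7.74% of all genes), with a median log2 fold change of -1.12. The largest fall was in Gbp6, from 24.1 and 24.2 CPM to 8.63 and 6.17 CPM (log2 fold change -1.68, SE 0.186, edgeR adjusted p = 0.000915), which is less than the difference of 6 Gimap members. Of the septins, filament-forming GTPases, 10 of 11 were tested, 2 fell (Sept4 and Sept5) and 1 rose (Sept11), beside 11.7% and 7.74% of all genes, with a median of 0.05. Sept4 fell from 13.8 and 12.2 CPM to 2.47 and 1.56 CPM (log2 fold change -2.63, SE 0.258, edgeR adjusted p = 0.000649), and Sept11 rose from 122.6 and 126.1 CPM to 307.9 and 290.4 CPM (log2 fold change 1.27, SE 0.0957, edgeR adjusted p = 0.000374). The lists were not compared with each other by a test.

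The genes whose pattern over the 4 libraries was most like that of Gimap8 were found by the Euclidean distance of the log2 CPM, centred per gene, among 12258 genes outside the family. The nearest was Ppm1j, a protein phosphatase, at a distance of 0.377, with 19.7 and 9.04 CPM in the GSI libraries against 0.587 and 0.595 CPM after washout. Next came Sema4a, a semaphorin, at 0.782, the histone deacetylase Hdac5 at 0.808, the adaptor Cass4 at 0.860 and Txnip, the thioredoxin-binding protein, at 0.882. Among the other members, Gimap7 at 1.90 and Gimap3 at 1.91 were the nearest to Gimap8 and Gimap9 at 3.56 the farthest. The genes named before them were picked as the smallest distances among 12258 genes. That they lie nearer than the members is therefore close to given by the choice, and says nothing about the family. How many genes lay as near as the members was not counted. The distance also grows with any gap in the size of the difference between conditions. Gimap8 itself was chosen by its difference between conditions, and 4 libraries are few points for a likeness.

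The label of a progenitor T cell was checked against markers. All 13 listed T-cell genes were tested, with a summed level of 6558 and 6592 CPM in the GSI libraries against 6457 and 6035 CPM after washout. The largest parts of this sum were Ptprc (2284 and 1672 against 1253 and 880 CPM) and Rag1 (1763 and 2367 against 2765 and 2554 CPM), which moved in opposite directions. Of the 13 genes, 1 rose and 3 fell past both thresholds, beside 7.74% and 11.7% of all genes. The pre-T-cell receptor gene Ptcra rose, by 2.37 on the log2 scale, and Cd5, Cd28 and Cd2 fell, with log2 fold changes of -1.90, -1.47 and -1.29. B cells, which also express Gimap genes, are represented by 6 markers with sums of 0.750 and 0.959 CPM in the GSI libraries against 0.323 and 0.372 CPM after washout, and Ms4a1, Pax5 and Ebf1 are at 0. For other cell types, the summed level was lower upon washout together with the Gimap genes, but it was carried by 1 to 3 genes in each list. The 6 NK-cell markers summed to 2602 and 1801 CPM in the GSI libraries against 387 and 307 CPM, of which Gzma alone gave 2599 and 1800 against 387 and 307 CPM. Nkg7 had 2.44 and 1.71 CPM against 0.0881 and 0.149 CPM, while the defining markers Ncr1, Klrb1c and Eomes had 0 to 5 counts per library and Klrd1 was at 0. The 6 mast-cell markers summed to 274 and 167 against 45.7 and 30.5 CPM, from Cpa3 (175.6 and 77.4 against 9.34 and 2.23 CPM) and Kit (98.8 and 89.3 against 36.3 and 28.3 CPM), with Fcer1a, Ms4a2 and Mcpt8 at 0. The 5 endothelial markers summed to 221 and 174 against 67.1 and 64.6 CPM, nearly all from Pecam1, with Kdr and Emcn at 0. The 7 myeloid markers with a row summed to 49.1 and 38.2 against 5.49 and 4.98 CPM, nearly all from Itgam (48.7 and 37.9 against 5.37 and 4.76 CPM), with Lyz1 and Lyz2 at 0. The 5 erythroid markers summed to 23.8 and 21.4 against 11.3 and 10.8 CPM, from Gata1, Epor and Klf1, with Hba-a1 and Hbb-b1 at 0. Whether other cells had a part in the members' values was not tested. Of all rows, 7342 are listed at 0 in every library, and a gene at 0 here is only said to be listed so.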

How the data were processed

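RNA was sequenced after removal of ribosomal RNA with a stranded kit. The authors aligned the reads to mm9 with HISAT2 2.2.1, keeping a single alignment for each read, which can place a read of a near copy on either gene. Counting used summarizeOverlaps with an iGenomes gene model. The authors deposited raw counts per gene, which are unnormalized and not pooled, in 1 column per library. The submitters' processing notes also name DESeq2 1.24.0. Conditions and replicates were taken from the labels. Counts of the 12266 genes that passed filterByExpr were fitted with edgeR 4.0.16 (R 4.3.3) by the quasi-likelihood test with TMM scaling and without covariates, and p-values were adjusted over all these genes by the Benjamini-Hochberg method. The thresholds, an adjusted p of 0.05 and a log2 fold change of 1, were those of the study. The SE is the log2 fold change divided by the root of the F statistic. Alternatives were DESeq2 1.42.0, RLE factors or the total count, other filters, thinning, the replicate block, GC content and length offsets, a prior count of 2, glmTreat and leaving out each library. Tested on simulated data with 200 of 12266 genes changed by 1.5 (log2), the edgeR test called 168 of them and 9 other genes. Positions and exon lengths came from GENCODE vM1 on mm9, which matched 20641 of 24391 symbols.

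The members and all gene lists were chosen with earlier results of these data known. Named were the members, the largest rise and fall past both thresholds in each list, and the 5 genes nearest to Gimap8. Btg2, Tob1, Foxo3, Sept5, the T-cell markers and the other genes given beside these were chosen after their values were seen. Depth limits low genes, and 3 counts were taken as the floor.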

Additional observations from a re-analysis of the deposited data

How the results depend on the processing

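Over 17 alternatives, 0 results reversed, 0 members were higher and 6 to 8 were lower. Of all genes, 4.08% were lower with glmTreat and 25.4% with the adjusted p-value alone. The family was chosen on this contrast, so the counts of members are a description. Over all genes, the adjusted p-value alone gave 3315 higher and 3120 lower and glmTreat 308 higher and 501 lower, in place of 950 and 1437. Scaling by the total count without TMM factors gave 587 higher and 1961 lower, so that the share of higher calls went from 39.8% to 23.0%, and the median of all genes went from -0.01 to -0.21. Leaving out 1 library gave 881 to 1064 genes higher and 1118 to 1375 lower, a median of the members of -2.16 to -1.77 and a difference of their summed level of -1.76 to -1.34. The lone library left in a condition is then assumed to vary like the others. Gimap4 lost its call in 5 alternatives (-1.39 in DESeq2, -1.31 with thinned counts, -1.47 with glmTreat, -0.86 without GSI replicate 1, -1.10 without washout replicate 1). Gimap9 gained one in 5 (-1.08 with the total count alone, -1.21 with GC content and length offsets, -1.24 with these and the block, -0.88 with the adjusted p-value alone, -1.04 without washout replicate 2).

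With the replicate number as a block, 981 genes were higher and 1576 (12.8%) lower, 7 members were lower and the median of the members was -1.91. The labels do not say that equal numbers mark a shared culture or day. Deviations of equally numbered libraries from their group means correlated at 0.497, over only 2 pairs, and replicate 1 was the deeper library in both conditions. The summed level has no separate value under the block, the offsets, the prior count or the other thresholds. Depth limits Gimap3, Gimap4 and Gimap7, which have 4 to 21 counts per library upon washout, and also Gimap8, which has 37 and 15.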
